A study of Mus musculus with 18 samples.

Results

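The prelimbic area of the medial prefrontal cortex (mPFC) was compared between mice collected 24 h after an injection of formalin into the paw and control mice, across all genes. The comparison held 6 of the 18 libraries of the series, 3 from formalin-exposed mice and 3 from controls. All animals were adult male wild-type C57BL/6 mice, and the other libraries came from the BNST (bed nucleus of the stria terminalis) of both groups and from both regions of mice collected 72 h after complete Freund's adjuvant (CFA). According to the labels the control mice had neither injection, whereas the figure legends of the study speak of sham-treated mice, so the injection itself and formalin cannot be told apart here.

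Formalin is a chemical irritant that serves as a model of acute inflammatory pain, and prelimbic neurons are known for their role in the emotional side of pain. Immediate early genes are transcribed within minutes of strong synaptic input, and most of their messenger RNAs are short-lived. A sample taken a day after an injection therefore reads their level at that hour rather than the first response. Each library was made from polyadenylated RNA of a whole dissected piece, in which fewer cells of a type and less RNA per cell cannot be told apart.

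The 3 control libraries held 18558693 to 21155401 counts, and the formalin libraries 23408503, 15684723 and 15862972. Levels are given in replicate order as CPM (counts scaled to a common library size with TMM factors), and 18994 genes were tested. Markers of cortical pyramidal neurons summed to 7957 to 8648 CPM in the control group and 8525 to 9106 CPM in the formalin group, so the defining markers of cortex were present, while choroid plexus markers summed to 3.99 to 28.3 CPM. The highest of these sums was that of formalin replicate 1, where the choroid plexus gene Ttr stood at 17.7 CPM. Control replicate 3 stood apart on the first principal component of the 6 libraries, at −34.5 against −12.3 and −14.7 for the other controls and 9.55 to 27.8 for formalin. The distance between libraries of the same group averaged 59.7 and that between groups 65.1, so the groups were only slightly farther apart than replicates.

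Few genes passed the test in the model of all 18 libraries. Of the 18994 genes, 51 passed the test, 0.269% of all, and 12 of them were higher (0.0632%) and 39 lower (0.205%). A gene passed at an adjusted p under 0.05 and a log2 fold change above 0.5 in either direction, in an edgeR quasi-likelihood model of all 18 libraries, and 131 genes (0.69%) met the adjusted p at any fold. In this model 2677 genes (14.1%) had an unadjusted p under 0.05. The 39 lower genes included the immediate early genes Ccn1, Dusp1, Ier2, Trib1 and Nr4a1, genes of blood vessels such as Dll4 and Ushbp1, and genes of RNA processing such as Leng8 and Clasrp. The higher genes included both mitochondrial ribosomal RNAs and mt-Nd1. In all 51 the 3 formalin libraries lay wholly on 1 side of the 3 controls, which was also true of 26.1% of all tested genes.

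The count depended on the model. With the 9 mPFC libraries alone, 252 of 17529 genes passed (1.44%), among them 50 of the 51, while DESeq2 called 133 genes with all 18. The 6 compared libraries alone gave 209 of 17183 genes. In the 18-library model the number was 5, 1 and 1 when control replicate 1, 2 or 3 was left out and 2 and 23 when formalin replicate 1 or 2 was. Without formalin replicate 3 none passed in edgeR, with 1855 genes at an unadjusted p under 0.05. No gene passed in edgeR after a correction for transcript length and GC content in the 18 libraries (2015 at an unadjusted p under 0.05), although all 51 kept their direction. The log2 fold change was then −1.99 for Dll4, −1.33 for Ccn1, −0.67 for Trib1 and 3.73 for Gm37140, with adjusted p of 0.14, 0.051, 0.051 and 0.14.

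Of 39 tested immediate early genes, 5 passed as lower and none as higher, against 0.205% and 0.0632% of all tested genes. The gene lists were chosen with earlier results of these data known, so such counts describe them and are no independent support. The median log2 fold change of the 39 was −0.32, against −0.0036 over all tested genes, and 29 of the 39 values were negative, as were 50.6% of all genes. After the length and GC correction the median of the list was −0.19, against 0.037 over all genes. The group sum was 2819, 2865 and 2623 CPM in the control libraries and 2504, 2198 and 2301 CPM in the formalin libraries, and the groups did not overlap.

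The sequence before the start site is shown for the 3 of these 5 genes that the promoter table holds, since these genes fell together and such promoters are known for elements that respond to cAMP and calcium. Each run gives 250 bases before to 50 bases after the RefSeq start site in GRCm38.p6, read 5′ to 3′ on the gene's strand. Capitals mark TGACG (the core of the cAMP response element, which overlaps the full element TGACGTCA), TATAAA and the CArG box on either strand.
Ccn1, minus strand, chr3:145649936-145650235: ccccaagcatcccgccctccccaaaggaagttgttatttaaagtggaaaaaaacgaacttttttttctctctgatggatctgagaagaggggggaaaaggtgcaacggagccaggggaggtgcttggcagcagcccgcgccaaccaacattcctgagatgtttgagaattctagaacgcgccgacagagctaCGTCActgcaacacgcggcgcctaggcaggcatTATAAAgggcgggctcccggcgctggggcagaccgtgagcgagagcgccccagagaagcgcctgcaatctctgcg
Dusp1, minus strand, chr17:26508423-26508722: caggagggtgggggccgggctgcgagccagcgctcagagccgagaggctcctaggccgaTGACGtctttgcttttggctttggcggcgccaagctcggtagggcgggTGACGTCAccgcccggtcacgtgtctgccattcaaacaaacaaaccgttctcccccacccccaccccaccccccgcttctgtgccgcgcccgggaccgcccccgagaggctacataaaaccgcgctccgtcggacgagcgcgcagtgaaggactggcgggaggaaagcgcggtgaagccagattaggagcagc
Nr4a1, plus strand, chr15:101266596-101266895: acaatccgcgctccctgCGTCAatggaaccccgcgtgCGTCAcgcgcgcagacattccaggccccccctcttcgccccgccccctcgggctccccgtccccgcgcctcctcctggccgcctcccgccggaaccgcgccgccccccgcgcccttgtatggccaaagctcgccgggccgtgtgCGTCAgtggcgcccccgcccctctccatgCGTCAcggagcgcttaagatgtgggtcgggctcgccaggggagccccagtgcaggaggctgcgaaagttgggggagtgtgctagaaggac
The letters TGACG occurred 1 time in the Ccn1 window, 3 times in that of Dusp1 and 4 times in that of Nr4a1. The full element TGACGTCA was found in the Dusp1 window, where its 2 strands account for 2 of the 3 shorter matches, and TATAAA in that of Ccn1. None of the 3 windows held a CArG box. Among all 32851 promoter windows of this length, 20.8% held TGACG, 1.79% the full element, 13.6% TATAAA and 1.63% a CArG box. Of the 40 windows of 30 tested immediate early genes, 57.5% held TGACG, and of the 38 windows of 30 lower genes 26.3% did. The mean GC content of these windows was 60.8% and 64%, against 53.8% over all windows.

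Ccn1 encodes a matricellular protein that growth factors and stretch induce in vessels and other cells (chr3:145646976-145649981). Its level was 10.8, 9.83 and 11.9 CPM in the controls and 5.22, 2.54 and 4.59 CPM after formalin. It fell by 61.6% (log2 fold change −1.38 ± 0.21, adjusted p = 0.023, SE here and below), and each formalin library lay below each control. This SE was derived as the absolute log2 fold change divided by the square root of the quasi-likelihood F statistic. Dusp1 encodes a phosphatase that switches off MAP kinases (chr17:26505590-26562128). It went from 60.7, 63.3 and 55.2 CPM to 36.3, 24.7 and 32.9 CPM (log2 fold change −0.93 ± 0.19, adjusted p = 0.038), with the lowest value in formalin replicate 2, as for Ccn1. Ier2, a small nuclear protein of the early response (chr8:84661331-84662852), was at 15.02, 12.7 and 12.9 CPM in the controls and 7.84, 6.19 and 7.46 CPM after formalin (log2 fold change −0.92 ± 0.19, adjusted p = 0.039).

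Trib1, a pseudokinase that directs transcription factors to degradation (chr15:59648350-59657099), gave the smallest p of the whole comparison. The controls read 39.8, 47.4 and 37.9 CPM and the formalin libraries 24.95, 23.4 and 23.5 CPM, so that the formalin values were nearly equal to each other and all lay below the lowest control (log2 fold change −0.80 ± 0.10, adjusted p = 0.0042). It was also the gene that passed most often when 1 library was left out, in 5 of 6 such models. Nr4a1, an orphan nuclear receptor induced by neuronal activity (chr15:101254269-101274795), fell from 202, 204 and 183 CPM to 131, 103 and 118 CPM (log2 fold change −0.74 ± 0.16, adjusted p = 0.049), just inside the threshold.

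The best known activity markers of neurons did not pass. Arc, which acts at excitatory synapses, read 313, 383 and 311 CPM in the controls and 210.1, 163 and 166 CPM after formalin, without overlap (log2 fold change −0.90 ± 0.27, adjusted p = 0.14). Npas4, a transcription factor specific to neurons, read 80.9, 78.1 and 70.9 CPM and 54.3, 15.9 and 31.8 CPM (log2 fold change −1.16 ± 0.48, adjusted p = 0.3). Fos read 54.3, 46.2 and 45.9 CPM and 37.1, 19.5 and 33.7 CPM (log2 fold change −0.69 ± 0.44, adjusted p = 0.54). Junb averaged 116 ± 3.25 CPM in the control group and 80.9 ± 18.6 CPM in the formalin group (mean ± SD, n = 3 per group, here and below; log2 fold change −0.52 ± 0.30, adjusted p = 0.46), and Egr1 averaged 358 ± 61.2 CPM in the control group and 287 ± 52.3 CPM in the formalin group (log2 fold change −0.32 ± 0.20, adjusted p = 0.52). In Arc, Npas4, Fos and Junb every formalin library was below every control, and in Egr1 the groups overlapped. Of the 39 immediate early genes 16 were lower and 3 higher without overlap, against 13.1% and 13% of all tested genes.

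A few members had higher values. Bdnf, a neurotrophin whose transcription follows activity, read 29.2, 28.6 and 25.5 CPM in the controls and 41.5, 48.3 and 43.1 CPM after formalin (log2 fold change 0.67 ± 0.43, adjusted p = 0.54), and the 9-library model gave it an adjusted p of 0.0002 as 1 of 54 higher genes there (0.308% of 17529). Homer1, a scaffold of the postsynaptic density, averaged 231 ± 16.9 CPM in the control group and 320.3 ± 28.6 CPM in the formalin group (log2 fold change 0.47 ± 0.17, adjusted p = 0.21). In the 9-library model Arc was among the 198 lower genes (1.13%), with an adjusted p of 0.0023. Arc also passed with DESeq2 and in the 6 compared libraries alone.

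**Figure D1:**
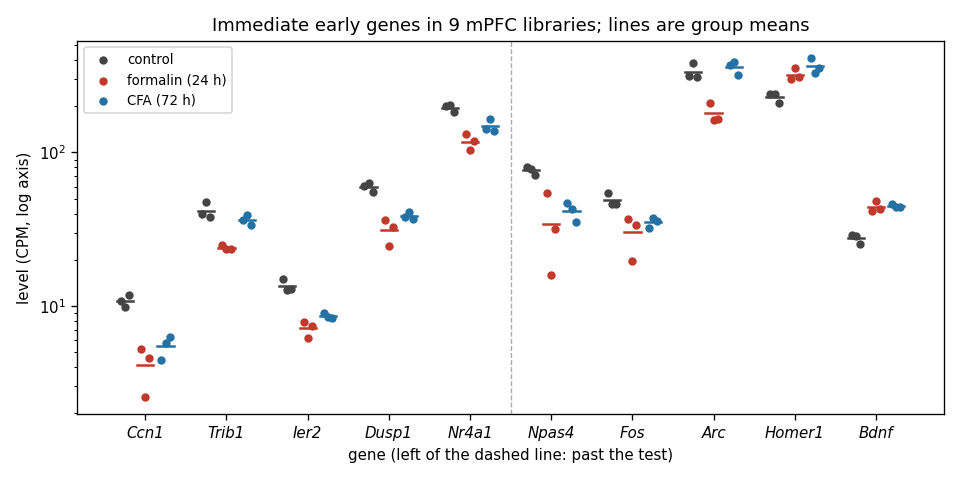
Levels of 10 immediate early genes in each of 9 mPFC libraries (CPM, logarithmic vertical axis), with points for control (grey), formalin (red) and CFA (blue) libraries and lines for the group means; the 5 genes left of the dashed line passed the test of formalin against control. For Ccn1 the formalin points lie at 2.54 to 5.22 CPM against 9.83 to 11.9 CPM in the controls, while the points of Homer1 and Bdnf lie above their controls.

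Genes of small vessels stood among the largest decreases. Dll4 encodes a Notch ligand of endothelial tip cells (chr2:119325784-119335962), and it fell from 2.36, 2.02 and 1.96 CPM to 0.495, 0.619 and 0.342 CPM, a fall of 76.8% (log2 fold change −2.11 ± 0.35, adjusted p = 0.027). Ushbp1 is expressed in endothelium (chr8:71384272-71395802) and went from 4.99, 5.88 and 6.38 CPM to 2.79, 2.1996 and 1.64 CPM (log2 fold change −1.36 ± 0.24, adjusted p = 0.032). Both had low counts, and the formalin libraries were all below the controls.

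All 15 tested endothelial markers had negative values, as had 50.6% of all genes, with a median log2 fold change of −0.55. Of the 15, 1 passed as lower, Ushbp1, against 0.205% of all genes. The sums of the list were 240.3, 277 and 300.04 CPM in the controls and 232, 193 and 174 CPM after formalin, without overlap. In the CFA libraries of the region the sums were 192, 187 and 199.6 CPM, also below every control. Kdr, the main receptor for VEGF, averaged 9.38 ± 0.891 CPM in the control group and 4.92 ± 2.103 CPM in the formalin group (log2 fold change −0.91 ± 0.23, adjusted p = 0.085), and Flt1, another VEGF receptor, averaged 34.8 ± 5.27 CPM in the control group and 25.4 ± 3.097 CPM in the formalin group (log2 fold change −0.45 ± 0.15, adjusted p = 0.18). Cldn5, the tight junction protein of brain endothelium, averaged 15.9 ± 2.04 CPM in the control group and 11.2 ± 2.47 CPM in the formalin group (log2 fold change −0.50 ± 0.29, adjusted p = 0.47), and Pecam1 averaged 9.92 ± 2.1969 CPM in the control group and 7.71 ± 0.292 CPM in the formalin group (log2 fold change −0.36 ± 0.19, adjusted p = 0.4). In the 9-library model 7 of the 15 were lower, Tek, Tie1, Kdr, Slco1a4, Ushbp1, Cdh5 and Esam, where 1.13% of all genes were. With the length and GC correction the median of the list was −0.52.

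Among 18 Notch pathway genes Dll4 alone passed (median −0.16, and −0.080 after the length and GC correction), and among 29 collagen genes Col5a1 alone passed, while 28 of the 29 values were negative (median −0.40, and −0.26 after the length and GC correction). Over all genes 0.205% passed as lower and 50.6% had negative values. Col5a1, a chain of fibrillar type V collagen (chr2:27886425-28039514), fell from 50.9, 44.8 and 50.9 CPM to 31.5, 22.6 and 27.9 CPM (log2 fold change −0.84 ± 0.16, adjusted p = 0.032). In the 9-library model Jag1 and Notch3 of the Notch list and Col15a1, Col16a1 and Col5a3 of the collagen list passed as well. They were lower, as were 1.13% of all genes in that model. Markers of mural cells and of fibroblasts had medians of −0.13 over 11 and 0.015 over 10 genes, and none passed. Pdgfrb, the growth factor receptor of pericytes, had the smallest p of the mural list and averaged 26.7 ± 2.97 CPM in the control group and 19.6 ± 3.099 CPM in the formalin group (log2 fold change −0.45 ± 0.14, adjusted p = 0.14), while Rgs5, its most counted member, averaged 72.6 ± 11.4 CPM in the control group and 72.7 ± 2.09 CPM in the formalin group. After the length and GC correction the mural median was −0.063. Col1a1 averaged 7.77 ± 2.94 CPM in the control group and 5.35 ± 1.69 CPM in the formalin group (log2 fold change −0.52 ± 0.40, adjusted p = 0.62), and Ptgds, the most counted gene of the meningeal list, averaged 243 ± 44.98 CPM in the control group and 312 ± 120.1 CPM in the formalin group and ranged widely between the formalin libraries.

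Of 14 oligodendrocyte markers 13 had negative values (median −0.40, −0.44 after the length and GC correction), as had 50.6% of all genes. As lower 1 passed, against 0.205% of all genes. Plxnb3, a semaphorin receptor (chrX:73757090-73772514), fell from 21.6, 25.1 and 26.2 CPM to 15.6, 14.02 and 14.99 CPM (log2 fold change −0.71 ± 0.13, adjusted p = 0.032). Hapln2, which organises the matrix at nodes of Ranvier, averaged 13.5 ± 3.93 CPM in the control group and 7.35 ± 0.805 CPM in the formalin group (log2 fold change −0.88 ± 0.21, adjusted p = 0.063). In the 9-library model Hapln2 and Mog passed as lower besides Plxnb3, where 1.13% of all genes did. Among genes of the myelin sheath Mag averaged 95.3 ± 18.7 CPM in the control group and 61.6 ± 9.72 CPM in the formalin group, Mog 26.6 ± 3.102 CPM in the control group and 18.3 ± 3.77 CPM in the formalin group and Mbp 1381 ± 386 CPM in the control group and 1088 ± 235 CPM in the formalin group, with adjusted p of 0.12, 0.26 and 0.48.

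The summed oligodendrocyte markers were 2651, 2714 and 4127 CPM in the controls and 2577, 1881 and 2868 CPM after formalin, so the groups overlapped, and control replicate 3, which stood apart on the first component, held the highest sum. The part of these sums in the change of Plxnb3 was not tested. Of 9 precursor markers 8 had small negative values (median −0.094, and −0.0022 after the length and GC correction) and none passed. Gpr17 averaged 71.1 ± 3.72 CPM in the control group and 61.4 ± 10.1 CPM in the formalin group (log2 fold change −0.21 ± 0.13, adjusted p = 0.5), and Olig1, the most counted, averaged 79.2 ± 15.5 CPM in the control group and 74.2 ± 4.84 CPM in the formalin group.

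Microglial markers lay on the other side. Of 16 tested, 15 had positive values (median 0.24, 0.28 after the length and GC correction), but none passed in either model. P2ry12, the purinergic receptor by which microglia sense ATP, read 31.9, 38.2 and 39.95 CPM in the controls and 47.97, 44.8 and 50.4 CPM after formalin, without overlap (log2 fold change 0.38 ± 0.12, adjusted p = 0.17). Gpr34, another receptor of resting microglia, averaged 11.8 ± 1.56 CPM in the control group and 16.7 ± 0.305 CPM in the formalin group (log2 fold change 0.50 ± 0.15, adjusted p = 0.12), and Csf1r, the receptor they need to survive, averaged 112 ± 10.4 CPM in the control group and 126 ± 7.52 CPM in the formalin group (log2 fold change 0.17 ± 0.09, adjusted p = 0.46). The sums of the list were 436, 498 and 531 CPM in the controls and 547, 579.7 and 594 CPM after formalin, so every formalin library exceeded every control.

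The classic inflammatory cytokines were barely counted. Il1b, Il6, Tnf and Ccl2 reached at most 4 counts in any of the 6 libraries and were not tested. Of 23 tested cytokine and NF-kB genes, 2 passed as lower, against 0.205% of all genes, and none as higher. Their median was −0.068, and −0.037 after the length and GC correction. Csf2ra, the alpha chain of the GM-CSF receptor (chr19:61223957-61228429), went from 39.4, 34.2 and 40.7 CPM to 26.6, 26.9 and 20.9 CPM (log2 fold change −0.62 ± 0.11, adjusted p = 0.032). Sbno2, a transcriptional coregulator induced by interleukin signalling, went from 34.6, 31.9 and 35.7 CPM to 23.2, 26.1 and 22.6 CPM (log2 fold change −0.51 ± 0.10, adjusted p = 0.033). Tyk2, a kinase of cytokine receptors, had an adjusted p of 0.032 but missed the minimum fold (log2 fold change −0.43 ± 0.08). Nfkbia, the inhibitor of NF-kB, read 9.72, 9.38 and 9.92 CPM and 11.3, 9.69 and 11.1 CPM and did not pass (log2 fold change 0.14 ± 0.16, adjusted p = 0.78). Pglyrp1, a peptidoglycan recognition protein outside this list, fell from 2.68, 2.91 and 2.998 CPM to 1.44, 1.03 and 0.753 CPM (log2 fold change −1.38 ± 0.26, adjusted p = 0.032). Card10, an adaptor that links receptors to NF-kB and was also outside it, fell from 4.41, 4.84 and 5.396 CPM to 3.06, 2.34 and 1.85 CPM (log2 fold change −0.995 ± 0.21, adjusted p = 0.041).

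Transcripts of the mitochondrial genome had higher values after formalin. The mitochondrial genome encodes 13 subunits of the respiratory chain and 2 ribosomal RNAs. The share of all counts that fell in its protein genes was 3.93%, 4.53% and 5.37% in the control libraries and 5.86%, 6.05% and 6.52% in the formalin libraries, without overlap. That of the ribosomal RNAs was 0.431%, 0.489% and 0.555% against 0.659%, 0.735% and 0.803%.

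All 13 protein genes had positive values (median 0.50), and 10 of them were higher without overlap, where 13% of all genes were. Past the test as higher was 1 of them, against 0.0632% of all genes. It was mt-Nd1, a subunit of complex I (chrM:2751-3707), which rose from 4169, 4859 and 5668 CPM to 7134, 7254 and 7936 CPM (log2 fold change 0.60 ± 0.12, adjusted p = 0.032). Of the ribosomal RNAs, mt-Rnr1 (chrM:70-1024) rose from 1687, 1844 and 2163 CPM to 2579.6, 2908 and 3374 CPM (log2 fold change 0.64 ± 0.14, adjusted p = 0.048) and mt-Rnr2 (chrM:1094-2675) from 2828, 3267 and 3456 CPM to 4366, 5011 and 5348 CPM (log2 fold change 0.62 ± 0.13, adjusted p = 0.041). Gm28439 (chr1:24611535-24612410), a nuclear pseudogene copy of mitochondrial sequence, rose from 16.97, 22.8 and 21.1 CPM to 33.5, 46.7 and 33.1 CPM (log2 fold change 0.89 ± 0.19, adjusted p = 0.041), and its reads cannot be told apart safely from mitochondrial ones.

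Further subunits did not pass in the 18-library model. The adjusted p was 0.057 for mt-Nd6, 0.077 for mt-Nd2, 0.087 for mt-Co1 and 0.098 for mt-Cytb, with log2 fold changes of 0.62, 0.50, 0.44 and 0.44. In the 9-library model mt-Nd2, mt-Nd6 and mt-Co2 passed besides mt-Nd1, with adjusted p of 0.008, 0.011 and 0.03. There 0.308% of all genes passed as higher. The length and GC correction lowered the median of the 13 genes to 0.31, and no member passed. The 3 CFA libraries, at 4.51% to 4.81%, lay within the range of the controls for the protein genes, and at 0.559% to 0.784% above all controls for the ribosomal RNAs.

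The nuclear genes of oxidative phosphorylation had small positive values. Of 75 tested, 71 were positive (median 0.17), and 32 did not overlap between the groups, all of these higher, where 13% of all genes were. None passed, while 2 were past the adjusted p at a smaller fold, as were 80 of all genes (0.421%). Cycs, the electron carrier cytochrome c, read 83.9, 75.6 and 73.3 CPM in the controls and 105, 97.9 and 119 CPM after formalin (log2 fold change 0.47 ± 0.07, adjusted p = 0.023), and Ndufv2, a core subunit of complex I, averaged 53.8 ± 2.37 CPM in the control group and 70.5 ± 4.25 CPM in the formalin group (log2 fold change 0.39 ± 0.08, adjusted p = 0.032). Atp5b, the most counted member, averaged 778 ± 42.6 CPM in the control group and 864 ± 65.2 CPM in the formalin group (log2 fold change 0.15 ± 0.09, adjusted p = 0.47). The median was 0.19 after the length and GC correction.

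**Figure D2:**
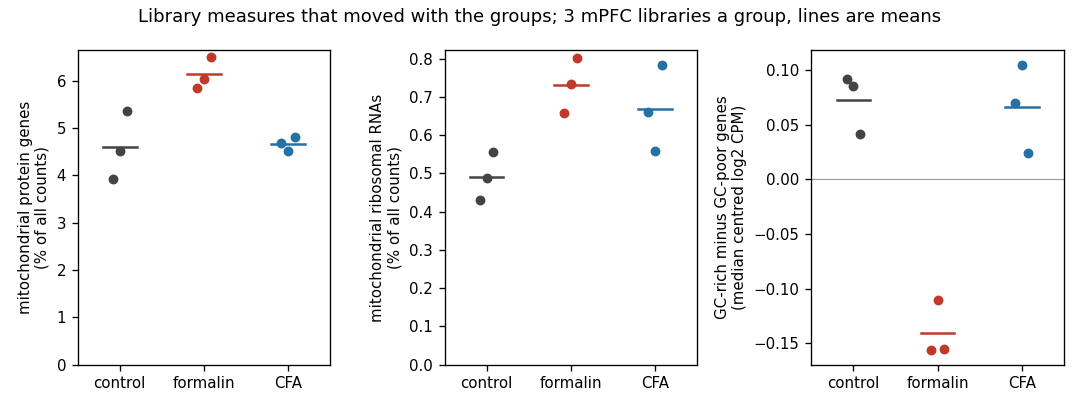
Share of counts in mitochondrial protein genes and in mitochondrial ribosomal RNAs (% of all counts), and the difference of median centred log2 CPM between the GC-rich and GC-poor quintiles of the genes, for each of 9 mPFC libraries; points are libraries and lines are group means. The formalin libraries lie above every control in both shares (5.86% to 6.52% against 3.93% to 5.37% for protein genes) and below every control and CFA library in the GC difference.

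Genes of protein turnover and of the vacuolar proton pump had small positive values. Of 31 proteasome subunits 30 were positive (median 0.18), of 37 translation initiation factors 32 (median 0.12) and of 21 proton pump genes 17 (median 0.11), and none passed. Vma21, an assembly factor of the pump, read 58.1, 55.2 and 62.2 CPM and 78.2, 76.5 and 82.1 CPM (log2 fold change 0.43 ± 0.06, adjusted p = 0.013). Psmc6, a proteasome ATPase, read 67.5, 65.5 and 65.8 CPM and 82.01, 82.8 and 84.1 CPM (log2 fold change 0.32 ± 0.06, adjusted p = 0.032). Eif3e, a subunit of initiation factor 3, averaged 52.8 ± 2.28 CPM in the control group and 69.8 ± 5.03 CPM in the formalin group (log2 fold change 0.40 ± 0.08, adjusted p = 0.032). In all 3 the groups were apart and the adjusted p was below 0.05, and the fold was below the minimum. The most counted members showed less, with log2 fold changes of 0.045 for Psmd2, 0.26 for Eif4a2 and 0.12 for Atp6v1b2 (adjusted p = 0.9, 0.15 and 0.68).

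RNA processing genes were lower in part. Of 37 tested, 3 passed as lower, against 0.205% of all genes, and none as higher. This list, too, was chosen with earlier results known, so the count is only descriptive. The median of the list was only −0.044, and −0.084 after the length and GC correction. Leng8, a protein of messenger RNA export, fell from 406, 423 and 470.03 CPM to 311, 309 and 259 CPM (log2 fold change −0.56 ± 0.12, adjusted p = 0.039). Clasrp, a regulator of alternative splicing, fell from 83.5, 81.8 and 87.5 CPM to 60.2, 59.7 and 52.4 CPM (log2 fold change −0.55 ± 0.10, adjusted p = 0.032). Akap8l, a nuclear matrix protein, fell from 224, 212 and 239.7 CPM to 162, 169 and 135 CPM (log2 fold change −0.54 ± 0.11, adjusted p = 0.038). Srrm2, a large scaffold of nuclear speckles and the most counted of these, averaged 984 ± 29.3 CPM in the control group and 722 ± 56.8 CPM in the formalin group and missed the minimum fold only (log2 fold change −0.45 ± 0.10, adjusted p = 0.046).

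Among 37 histone methyltransferase and coactivator genes, 32 values were negative (median −0.10), as were 50.6% of all genes. Mbd6 alone passed, as lower, against 0.205% of all genes. Mbd6, a methyl-CpG-binding domain protein (chr10:127281956-127289018), fell from 49.96, 48.7 and 57.8 CPM to 34.9, 36.8 and 32.5 CPM (log2 fold change −0.59 ± 0.10, adjusted p = 0.032). Kmt2d and Kmt2b, both methyltransferases of histone H3, averaged 286 ± 8.43 CPM in the control group and 218 ± 4.36 CPM in the formalin group and 92.2 ± 1.71 CPM in the control group and 69.7 ± 8.65 CPM in the formalin group, with log2 fold changes of −0.39 and −0.40 (adjusted p = 0.027 and 0.038). Med12, a kinase-module subunit of Mediator, had a log2 fold change of −0.44 (adjusted p = 0.039). After the length and GC correction the median of this list was −0.0048 and 18 of 37 values were positive.

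Of 11 long noncoding RNAs 1 passed as higher, against 0.0632% of all genes. Kcnq1ot1, the antisense transcript that silences its imprinted domain (chr7:143203458-143296549), rose from 54.1, 50.3 and 58.5 CPM to 75.3, 74.1 and 85.3 CPM (log2 fold change 0.53 ± 0.10, adjusted p = 0.032). It lies opposite to Kcnq1, and whether the counting used strand is not given in the sources used here, so reads of the pair may be mixed. Neat1, the scaffold of paraspeckles, averaged 58.6 ± 9.46 CPM in the control group and 35.8 ± 7.698 CPM in the formalin group (log2 fold change −0.70 ± 0.19, adjusted p = 0.098), and Malat1 averaged 890.4 ± 91.6 CPM in the control group and 1076 ± 149 CPM in the formalin group (log2 fold change 0.27 ± 0.22, adjusted p = 0.65).

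The remaining higher genes were few and mostly of low counts. Lyrm4, which takes part in building iron-sulfur clusters, rose from 12.4, 10.6 and 11.4 CPM to 16.3, 14.4 and 19.6 CPM (log2 fold change 0.55 ± 0.12, adjusted p = 0.049). Zfp35, a zinc finger protein, rose from 17.3, 19.5 and 14.2 CPM to 24.9, 22.1 and 25.8 CPM (log2 fold change 0.51 ± 0.11, adjusted p = 0.039), and Pcdhb8, a clustered protocadherin with close paralogs among which reads may be split, from 3.100, 2.72 and 2.94 CPM to 4.77, 4.95 and 5.68 CPM (log2 fold change 0.81 ± 0.17, adjusted p = 0.041). The other 4 averaged below 3 CPM in the formalin group. They were Gm37140 (log2 fold change 3.89 ± 0.66, with 1 control library at 0), Ncmap, a myelin protein of peripheral nerve (2.03 ± 0.40), Gm43462 (1.36 ± 0.26), and Gm25047 (1.22 ± 0.25).

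The remaining lower genes came from several functions. Large changes among those above 5 CPM were seen for Sec14l5, a lipid-binding protein, from 16.9, 15.3 and 21.4 CPM to 10.1, 6.46 and 10.4 CPM (log2 fold change −0.98 ± 0.20, adjusted p = 0.039), and for Ovca2, a serine hydrolase whose gene overlaps Dph1, from 16.2, 16.6 and 16.8 CPM to 9.82, 7.77 and 8.35 CPM (log2 fold change −0.93 ± 0.21, adjusted p = 0.046). Als2cl went from 8.88, 9.73 and 9.27 CPM to 4.19, 6.26 and 4.59 CPM (log2 fold change −0.90 ± 0.16, adjusted p = 0.032). Cdh24, a cadherin, went from 15.8, 17.2 and 17.00 CPM to 9.64, 9.42 and 8.35 CPM (log2 fold change −0.87 ± 0.16, adjusted p = 0.032). In each of these the highest formalin library was below the lowest control.

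Genes of the cilium and centrosome were found as well. Crocc, the main protein of the ciliary rootlet (chr4:141016637-141060550), fell from 138, 118 and 149.9 CPM to 65.98, 87.1 and 74.2 CPM (log2 fold change −0.84 ± 0.16, adjusted p = 0.032), and Mks1, of the transition zone, from 5.46, 5.28 and 7.03 CPM to 3.78, 3.23 and 3.29 CPM (log2 fold change −0.78 ± 0.17, adjusted p = 0.041). No list of ciliary genes was tested, so these are single genes. Neil1, a glycosylase that removes oxidised bases from DNA, went from 13.03, 15.01 and 14.7 CPM to 8.78, 8.87 and 8.83 CPM (log2 fold change −0.69 ± 0.11, adjusted p = 0.023), with nearly equal formalin values.

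Further members were Abcd4, a transporter of vitamin B12 from lysosomes, with 18.6, 20.2 and 23.9 CPM against 12.7, 13.1 and 13.9 CPM (log2 fold change −0.66 ± 0.11, adjusted p = 0.027), and Arhgef1, an activator of the GTPase RhoA, with 73.5, 73.2 and 74.8 CPM against 49.5, 53.1 and 44.1 CPM (log2 fold change −0.59 ± 0.10, adjusted p = 0.027). In both the groups were clearly apart. Nbeal2, a protein needed for platelet granules, read 32.5, 30.96 and 35.3 CPM and 22.1, 21.7 and 20.8 CPM (log2 fold change −0.61 ± 0.13, adjusted p = 0.045). Lims2, an adaptor of focal adhesions, read 8.14, 8.69 and 9.59 CPM and 5.81, 6.46 and 5.07 CPM (log2 fold change −0.61 ± 0.13, adjusted p = 0.038). Acrbp, known from the sperm acrosome, read 6.04, 7.65 and 8.01 CPM and 4.14, 4.33 and 4.18 CPM (log2 fold change −0.78 ± 0.17, adjusted p = 0.04). Again no formalin library reached a control.

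The last of this group were Ccdc159, with 19.9, 19.6 and 19.8 CPM against 12.7, 13.5 and 12.4 CPM (log2 fold change −0.62 ± 0.13, adjusted p = 0.038), Lmbr1l, a membrane receptor, with 12.7, 14.4 and 14.7 CPM against 9.73, 10.2 and 8.15 CPM (log2 fold change −0.58 ± 0.11, adjusted p = 0.035), and Wdr90, a centriolar protein, with 41.9, 38.9 and 38.1 CPM against 28.5, 30.3 and 21.6 CPM (log2 fold change −0.56 ± 0.12, adjusted p = 0.046). Close to the minimum fold stood Actr5, a subunit of the INO80 chromatin remodeller (−0.52), Kif13b, a kinesin (−0.51), and Nrbp2, a pseudokinase (−0.50). Under 5 CPM in both groups were Spaar (−1.78), Gm26852 (−1.63) and D830024N08Rik (−1.13). Of the 51 genes 19 were members of a list and 32 were not.

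**Figure D3:**
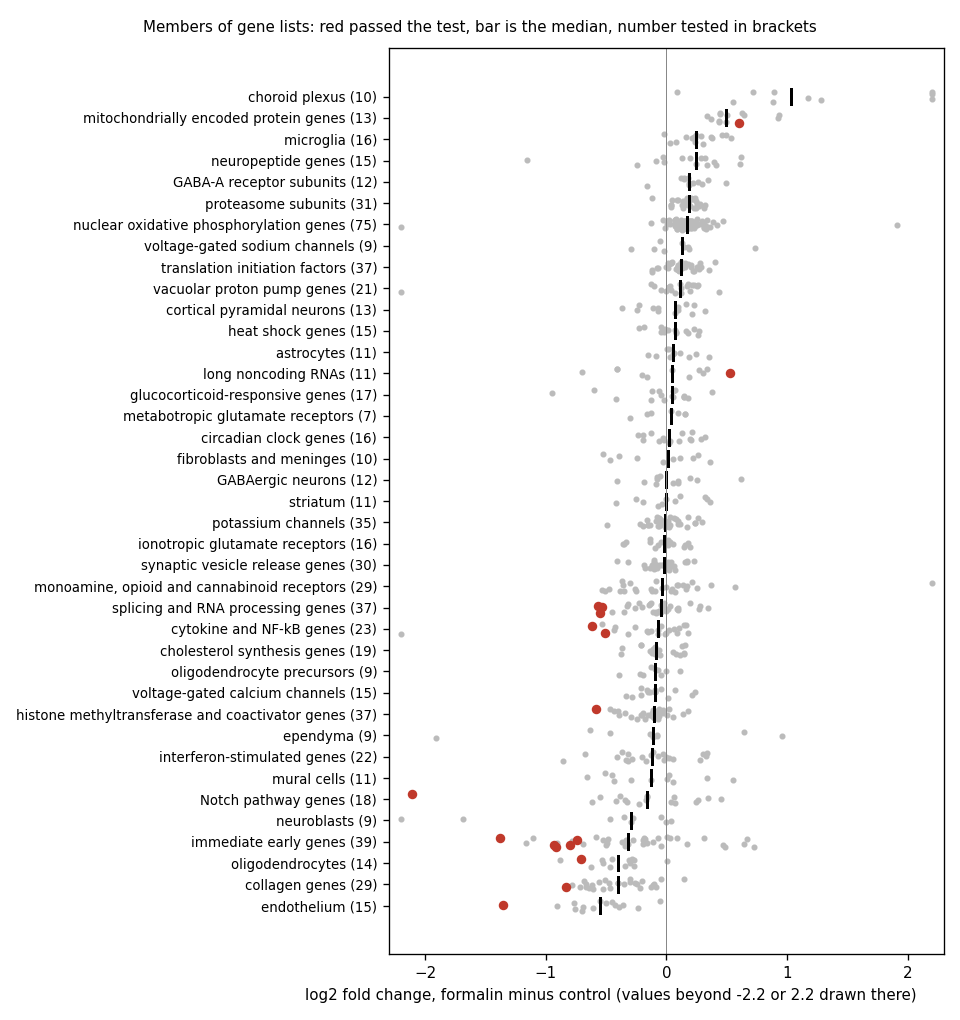
Log2 fold change of formalin over control (horizontal axis) for the tested members of 39 gene lists, ordered by their medians; grey points are members, red points those that passed, black bars medians, and numbers in brackets the genes tested. The endothelial, collagen, oligodendrocyte and immediate early lists have the lowest medians (−0.55 to −0.32), and the choroid plexus list, which summed to 3.99 to 28.3 CPM, the highest; lists of under 5 tested genes are left out.

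No gene passed in the lists of transmission and excitability in the 18-library model. Of 16 ionotropic glutamate receptor genes the smallest p belonged to Grik3 (log2 fold change −0.35 ± 0.13, adjusted p = 0.22), and the AMPA receptor subunit Gria2, the most counted, averaged 885 ± 20.7 CPM in the control group and 980.2 ± 15.99 CPM in the formalin group. Of 7 metabotropic receptors Grm3 gave 0.16 and the more counted Grm5 0.15 (adjusted p = 0.5 and 0.71). Of 12 GABA-A receptor subunits 11 had positive values (median 0.19). The smallest p there was that of Gabrg1 (log2 fold change 0.49 ± 0.16, adjusted p = 0.17).

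Among ion channels, Cacna1h, a T-type calcium channel, read 105, 93.6 and 101 CPM in the controls and 77.6, 83.8 and 76.1 CPM after formalin, apart but not past the test (log2 fold change −0.34 ± 0.11, adjusted p = 0.19). Cacna1e, the most counted of 15 calcium channel genes, had −0.14 (adjusted p = 0.7). Scn7a, an atypical sodium channel, came closest in the 18-library model, with 8.51, 9.19 and 8.18 CPM against 15.3, 15.1 and 12.5 CPM (log2 fold change 0.73 ± 0.17, adjusted p = 0.051), and it passed with DESeq2 and in the 9-library model (adjusted p = 0.0024), whereas Scn2a had 0.15 (adjusted p = 0.63). Of 35 potassium channels, Kcnt1, gated by sodium, averaged 221 ± 15.2 CPM in the control group and 157 ± 16.9 CPM in the formalin group (log2 fold change −0.49 ± 0.13, adjusted p = 0.097).

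Nos1, the neuronal nitric oxide synthase, read 83.8, 74.9 and 118 CPM in the controls and 72.6, 77.1 and 67.8 CPM after formalin (log2 fold change −0.35 ± 0.14, adjusted p = 0.27), and the groups overlapped. Cav2, a caveolin, read 39.8, 39.5 and 32.9 CPM and 46.97, 45.3 and 45.6 CPM (log2 fold change 0.30 ± 0.10, adjusted p = 0.16), apart but not past the test. Vip, the peptide of a class of interneurons, had 35.4, 38.2 and 31.01 CPM against 54.8, 53.3 and 52.98 CPM. Its groups did not overlap, and the 18-library model gave it log2 fold change 0.62 ± 0.33, adjusted p = 0.43, while the 9-library model gave an adjusted p of 0.00025. Cck, the most counted of 15 neuropeptide genes, averaged 363 ± 25.2 CPM in the control group and 429 ± 16.4 CPM in the formalin group (log2 fold change 0.24 ± 0.62, adjusted p = 0.93). This SE and p rest on a spread that includes the BNST libraries. In the 9 libraries with the length and GC correction edgeR gave Cck an adjusted p of 0.024. It passed neither there nor in the uncorrected 9-library model.

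For synaptic vesicle release the smallest p was that of Napb (log2 fold change 0.23 ± 0.14, adjusted p = 0.5), and Snap25 had 0.16 (adjusted p = 0.68). For monoamine, opioid and cannabinoid receptors it was that of the nociceptin receptor Oprl1 (log2 fold change 0.26 ± 0.10, adjusted p = 0.23), and Cnr1 had 0.17 (adjusted p = 0.64). No neuronal marker passed. Mef2c had 0.23 and Camk2a 0.16 among pyramidal markers, and Lamp5 0.25 and Gad1 0.052 among those of GABAergic neurons, with adjusted p of 0.18, 0.79, 0.38 and 0.94. Among astrocyte markers S100b had 0.35 and Slc1a2 0.11 (adjusted p = 0.3 and 0.79).

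Stress lists also held no gene that passed in the 18-library model. Hif3a, which glucocorticoids induce, averaged 6.62 ± 1.16 CPM in the control group and 4.39 ± 0.837 CPM in the formalin group (log2 fold change −0.60 ± 0.24, adjusted p = 0.25), with a pass in the 9-library model (adjusted p = 0.0498), and Klf9 had 0.18 (adjusted p = 0.44). Of the heat shock genes Dnaja1 had 0.23 and Hspa8 0.16, and of the clock genes Nr1d2 had 0.21 and Tef −0.019, with adjusted p of 0.18, 0.49, 0.17 and 0.97. Among interferon-stimulated genes Stat2 had −0.32 and B2m 0.33, and among cholesterol synthesis genes Dhcr7 had −0.21 and Srebf2 −0.084 (adjusted p = 0.19, 0.35, 0.25 and 0.83).

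Lists for neighbouring tissue gave no gene that passed either. Among striatal markers Penk had 0.34 and Pde10a −0.033 (adjusted p = 0.57 and 0.99). Tubb3, the most counted gene of the neuroblast list, had 0.040 (adjusted p = 0.97), and Igfbpl1 was near 0 in all but control replicate 3, at 4.85 CPM. Hdc and Foxj1 of the ependymal list averaged under 4 CPM, with adjusted p of 0.24 and 0.67. The haemoglobin gene Hbb-bs read 0.735, 1.09 and 2.18 CPM in the controls and 11.1, 2.34 and 0.958 CPM after formalin (adjusted p = 0.43), highest in formalin replicate 1, the library in which Ttr was highest too.

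The base composition of the transcripts moved with the groups. The 12 higher genes had a median GC content of 38.1% and the 39 lower genes of 56.0%, where the median of all tested genes was 49.3%, and 38 of the 39 lower genes lay above that median while 11 of the 12 higher genes lay below it. In quintiles of the genes from GC-poor to GC-rich, the median log2 fold change was 0.12, 0.041, −0.011, −0.059 and −0.089. Of the lower genes 24 belonged to the GC-richest quintile and none to the 2 poorest. Across 18970 genes, which are not independent replicates, GC content and log2 fold change had a Spearman correlation of −0.30, and exon length −0.057.

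The starts of 3 coding sequences show this range, a GC-poor gene that rose and 2 GC-rich genes that fell. Each run is the first 150 coding bases of the longest annotated coding transcript in GENCODE M21 (GRCm38), with G and C in capitals.
mt-Nd1: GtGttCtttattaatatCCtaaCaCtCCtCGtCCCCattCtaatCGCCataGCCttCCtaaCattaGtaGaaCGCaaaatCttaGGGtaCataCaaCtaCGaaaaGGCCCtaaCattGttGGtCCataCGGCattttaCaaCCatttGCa
Crocc: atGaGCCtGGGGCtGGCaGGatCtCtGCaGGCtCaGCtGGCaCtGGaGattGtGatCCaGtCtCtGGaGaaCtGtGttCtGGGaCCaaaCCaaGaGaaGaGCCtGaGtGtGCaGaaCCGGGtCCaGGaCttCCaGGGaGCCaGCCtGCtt
Mbd6: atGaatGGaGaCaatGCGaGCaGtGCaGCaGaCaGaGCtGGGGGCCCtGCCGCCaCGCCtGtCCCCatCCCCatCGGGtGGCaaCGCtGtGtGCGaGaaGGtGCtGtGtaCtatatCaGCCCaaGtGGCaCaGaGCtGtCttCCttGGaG
G and C make up 40%, 58% and 60% of the printed bases of mt-Nd1, Crocc and Mbd6. They make up 37.6% of the whole transcript of mt-Nd1, 63.9% of that of Crocc and 63.1% of that of Mbd6.

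**Figure D4:**
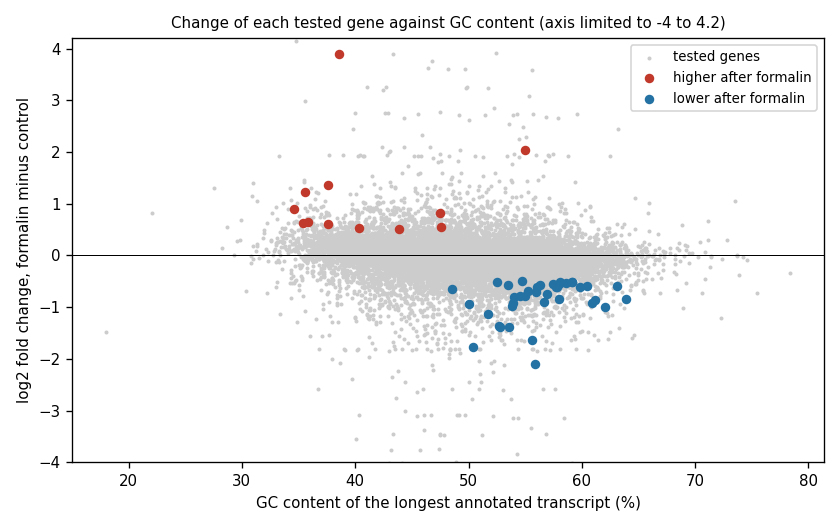
Log2 fold change of formalin over control (vertical axis) against the GC content of the longest annotated transcript (%, horizontal axis) for each tested gene, with genes that passed in red (higher) and blue (lower); 11 genes beyond the vertical axis are not drawn. The red points lie mostly at 34.6% to 47.6% GC and the blue points at 48.6% to 63.9%.

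The same lean was visible in each formalin library. The median centred log2 CPM of the GC-richest quintile minus that of the poorest was 0.0916, 0.0854 and 0.0419 in the controls, −0.156, −0.1099 and −0.155 after formalin, and 0.0702, 0.105 and 0.0239 after CFA, so all 3 formalin libraries stood apart from the other 6. With a per-library correction for exon length and GC content the difference between the outer quintiles changed from −0.21 to −0.012. In the 9 mPFC libraries with this correction, chosen after the data were seen, 79 genes passed, 61 of them lower, and 27 of the 51 remained, among them Trib1 with an adjusted p of 0.0013, Ccn1 with 0.0024 and Dll4 with 0.005. The part of base composition in the 51 changes was not tested beyond this.

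The CFA libraries of the same region share the controls, so their values are given only side by side. For Ccn1 they read 4.43, 5.76 and 6.31 CPM, for Dusp1 37.9, 41.1 and 36.6 CPM and for Ier2 8.98, 8.47 and 8.304 CPM, all below the controls. They were also below every control for Dll4 at 1.65, 1.65 and 1.16 CPM and for Ushbp1 at 2.78, 2.25 and 3.35 CPM. For Col5a1 they read 26.9, 28.4 and 32.96 CPM, again below every control. Their summed collagen genes, at 562, 583 and 653 CPM, overlapped the controls. For Trib1 they read 36.6, 39.2 and 33.6 CPM, overlapping the controls, and for Arc 373, 389 and 321 CPM, none of them below the lowest control. For mt-Nd1 they read 4927, 4555 and 4959.9 CPM and for Plxnb3 28.5, 19.6 and 25.5 CPM, within or overlapping the range of the controls in both. These mice were collected at 72 h, so agent and time differ together.

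In the BNST of the formalin group 92 of the 18994 genes (0.484%) reached an adjusted p under 0.05. None of the 51 did, a count that this background share does not set apart. There 7 of the 12 higher and 28 of the 39 lower genes had the same sign, without a share over all genes to set beside these counts. The difference between the regions was tested as an interaction, which 30 of 18994 genes passed (0.158%), 3 of them among the 51. Trib1 changed by −0.80 in the mPFC and 0.071 in the BNST (adjusted p of the difference = 0.023), Plxnb3 by −0.71 and 0.35 (0.026), and Kif13b by −0.51 and 0.38 (0.02). Nr4a1, in contrast, had −0.74 and −0.75, with a difference whose adjusted p was 0.99. Both regions were dissected from each brain. With mPFC and BNST libraries of the same treatment and number as a block, 12 genes passed, and Trib1, Plxnb3 and Kif13b did not (adjusted p = 0.085, 0.085 and 0.09).

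**Figure D5:**
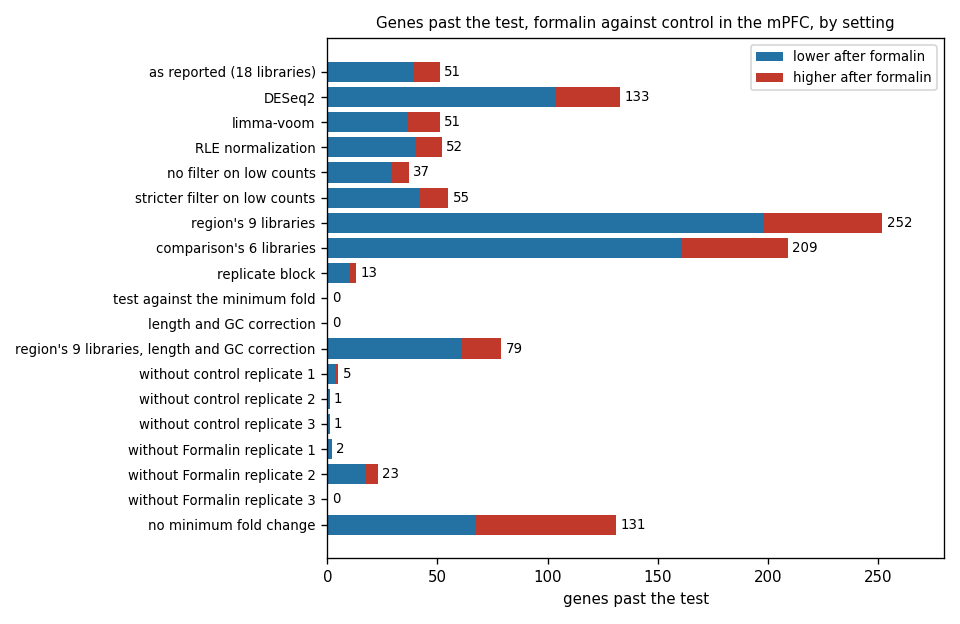
Number of genes past the test of formalin against control (horizontal axis) under the model as reported and each other setting, with lower genes in blue and higher genes in red. The bars run from 0 to 252 genes, and the lower genes are the larger part in every setting in which any gene passed.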

How the data were processed

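Prelimbic and BNST tissue of 3 mice per group gave 18 polyadenylated RNA libraries. Per the submitters' processing notes and the study's methods, the authors trimmed reads with Trimmomatic 0.39, aligned them to mm10 with HISAT2 2.2.1 and deposited raw counts per gene from featureCounts 2.0.1. The annotation release and strand setting are not given in the sources used here. The deposited counts were tested with edgeR 4.0.16 (R 4.3.3): TMM scaling, genes filtered by a minimum count of 10 and a minimum total of 15, and a robust quasi-likelihood fit of 6 groups over 18 libraries with Benjamini-Hochberg adjustment. The labels do not tie libraries to single mice. The p-values of the 18-library model rest on the spread between samples within all 6 groups, BNST and CFA libraries included.

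DESeq2 1.42.0, limma-voom (limma 3.58.1), other filters and scalings, fewer libraries, a replicate block, a test against the minimum fold and a per-library correction for exon length and transcript GC content (GENCODE M21, GRCm38) were alternatives. The procedure was tested on simulated data. Every gene past the test was named, those of at least 5 CPM with values, except that a few genes covered by these rules are not reported here. Of each gene list the members that passed were named or, with none, the one with the smallest p and the most counted one. Other list members named here were chosen after their values were seen, and the comparison and the 41 gene lists were chosen with earlier results of these data known.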

Additional observations from a re-analysis of the deposited data

Results flagged for a closer look

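The formalin change differed between the mPFC and the BNST for 4 genes named in the report, by edgeR's quasi-likelihood interaction test over 18 libraries. The difference, mPFC minus BNST on the log2 scale, was −0.89 for Kif13b (−0.51 in the mPFC and 0.38 in the BNST, adjusted p = 0.020) and −1.05 for Plxnb3 (−0.71 and 0.35, adjusted p = 0.026). For Trib1 it was −0.87 (−0.80 and 0.071, adjusted p = 0.023). For the paraspeckle RNA Neat1 it was −1.72 (−0.70 and 1.02, adjusted p = 0.022), although its change in the mPFC alone did not pass. In all, 30 of 18994 genes passed this test, and 0 to 20 did when 1 library was left out. The mPFC libraries all ran on lane 2, whereas the control BNST libraries ran on lanes 1, 1 and 2 and the formalin BNST libraries on lanes 3, 2 and 2. Lane is thus partly mixed with the BNST change. With mPFC and BNST libraries of the same treatment and replicate number as a block, 12 genes passed and none of these 4 did, at adjusted p of 0.09 for Kif13b, 0.085 for Plxnb3 and Trib1 and 0.096 for Neat1, with differences of −0.90, −1.05, −0.86 and −1.72.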

How the results depend on the processing

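The 51 genes became 133 with DESeq2, 252 in the 9 mPFC libraries alone, 209 in the 6 libraries compared, 131 without a minimum fold, 79 in the 9 libraries with the length and GC correction (chosen after the data were seen), and 0 both with that correction in 18 libraries and in a test against the minimum fold. Of 19 list members that passed, the numbers were 32 with DESeq2, 40 in the 9 and 40 in the 6 libraries, 35 without a minimum fold, and 0 with the correction and with the test against the minimum fold. Without a minimum fold 48.9% of the genes were higher, against 23.5%. The 30 genes that differed between the regions became 273 with DESeq2, 84 without a filter on low counts and 13 with the length and GC correction.

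With the replicate number as a block, 13 genes, 7 list members and 94 genes that differed between regions passed. Same-numbered control and formalin libraries had correlations of −0.050, 0.085 and 0.0055, and differently numbered ones ran from −0.083 to 0.086. With 3 such pairs, these values cannot decide whether the numbers pair these samples. For same-numbered mPFC and BNST libraries, which may come from 1 brain though no source ties the numbers to brains, the correlations ran from −0.032 to 0.17. With these as a replicate block, chosen after the data were seen, 12 genes differed between regions, 9 of them among the 30. Leaving out 1 library gave 0 to 23 genes (5 without control replicate 1, 1 without control replicate 2 or 3, and, for formalin, 2 when replicate 1 was omitted, 23 when replicate 2 was and 0 when replicate 3 was), of which 0% to 26.1% were higher, 0 to 8 list members and 0 to 20 genes that differed between regions. In the 9 libraries it gave 100 to 233 genes, fewest without formalin replicate 3, and 28 of the 51 passed in all 6 of these models.

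Among 139 genes followed through every setting, signs turned in 8, none of which had passed. With the length and GC correction in 18 and in 9 libraries the log2 fold changes were 0.0979 and 0.104 for Tef, 0.065 and 0.0725 for Srebf2, 0.014 and 0.0069 for Olig1, 0.0222 and 0.021 for Pde10a, and −0.0628 and −0.0776 for Rgs5, which also had −0.000288 with DESeq2, −0.000286 with RLE normalization, −0.00917 with a stricter filter and −0.000146 in the 9 libraries. Leaving out 1 library gave −0.122 to 0.091 for Rgs5, −0.034 to 0.113 for Gad1, −0.223 to 0.0601 for Olig1, −0.126 to 0.0777 for Pde10a, −0.0282 to 0.113 for Psmd2, −0.0454 to 0.0167 for Tef and −0.00273 to 0.0863 for Tubb3. Of the values for single genes under all alternatives, 1818 kept direction and side of the threshold, 471 no longer passed, 36 newly passed and 24 changed sign. With DESeq2 8 genes newly passed, Arc, Kdr, Hapln2, Mag, Neat1, mt-Nd2, mt-Nd6 and Scn7a. With 3 libraries a group and 15684723 to 23408503 counts, genes of a few CPM rest on few counts, and the causes of these differences were not tested.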
